A study of Mus musculus with 3 samples.

Results

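The forkhead, Sox, T-box and Gata genes encode transcription factors that set cell lineage, and they were examined in a pool of mouse glomerular mesangial and endothelial cells. Genes were taken by symbol: those named Fox with a letter from a to s and a number, Sox with a number, Tbx with a number, and Gata1 to Gata6. The rule found 82 genes, all protein-coding, of the 39304 rows of the table, with 44 Fox, 19 Sox, 13 Tbx and 6 Gata genes. A single male wild-type C57BL/6 mouse, 8 weeks old, gave the kidney glomeruli, the capillary tufts where blood is filtered. Single glomerular cells were lysed in the wells of a Fluidigm C1 system, the cDNA of 15 wells typed by qPCR as mesangial and of 15 typed as endothelial was pooled, and the pool was split into 3 aliquots that became 3 sequencing libraries. The libraries form 1 group without a contrast between conditions, all from 1 mouse and 1 pool. Every SD is therefore over the 3 aliquots (n = 3) and measures library making and sequencing, not animals. Because the cells were pooled, more cells of a type and more RNA per cell cannot be told apart, and no transcript can be assigned to either cell type.

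Forkhead proteins bind DNA through a winged-helix domain, Sox proteins bend it through an HMG box, T-box proteins contact it through the T-box domain, and GATA proteins read the GATA motif with zinc fingers. In the mouse kidney Foxd1 marks the stromal progenitors from which mesangial cells, pericytes and vascular smooth muscle arise. Sox7, Sox17 and Sox18 form the SoxF group of endothelial factors, Gata2 is an endothelial and blood factor, Foxc1 and Foxc2 act in kidney mesoderm, podocytes and vessels, and Gata3 is made by mesangial cells and by the collecting duct.

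The deposited values are FPKM (fragments scaled to kilobases of gene and to 1000000 library reads), and all levels here are on that scale. The library totals behind them were 9141422, 10427635 and 10976563 reads for aliquots 1, 2 and 3. Read numbers per gene were recovered from the steps of the FPKM values and are exact up to a common whole factor; they are reads of amplified cDNA, not molecules. Against the labels, 11 of 11 mesangial and 11 of 11 endothelial markers reached 1 FPKM in every aliquot. Gata3 and Igfbp5 of the first list and Pecam1 (CD31) and Tek (Tie2) of the second had served to type the wells. The presence of these 4 genes was therefore partly fixed. Of all protein-coding genes 36.5% reached 1 FPKM in every aliquot, a share that stands beside each marker count here. Podocyte markers did so for 6 of 9, with a summed level of 276 to 293 FPKM over the aliquots, and their mean levels ran between 0.0420 FPKM for Clic3 and 101 FPKM for Wt1. The 6 smooth muscle and renin cell markers had 5 at that limit and a summed level of 172 to 187 FPKM, with Cnn1 at 0. Fibroblast markers had 2 of 6, Pdgfra with 48.1 ± 1.35 FPKM and Pi16 with 4.39 ± 0.606 FPKM, a summed level of 51.0 to 54.2 FPKM, and Col1a1, Col3a1, Dcn and Lum at 0. All 9 parietal and tubule markers and all 8 immune and erythroid markers were listed at 0. A 0 in this table is reported only as listed, since mt-Nd4l and the splicing factor gene Srsf4, used by most cells, are also listed at 0 in each aliquot.

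Of the 82 genes, 19 were detected, a word kept here for a level of 1 FPKM or more in each of the aliquots. This is 23.2% of them, against 36.5% of all 21226 protein-coding genes of the table. Another 8 were above 0 in some aliquot but missed the limit, and 55 were listed at 0 throughout, as were 54.5% of all protein-coding genes. A mean of at least 10 FPKM was reached by 13 genes, while 24.8% of all protein-coding genes reached it. The 19 detected genes had a median of 15.3 FPKM, against 21 FPKM for the 7757 detected protein-coding genes. By family, 2 of 6 Gata, 10 of 44 Fox, 5 of 19 Sox and 2 of 13 Tbx genes were detected.

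**Figure D1:**
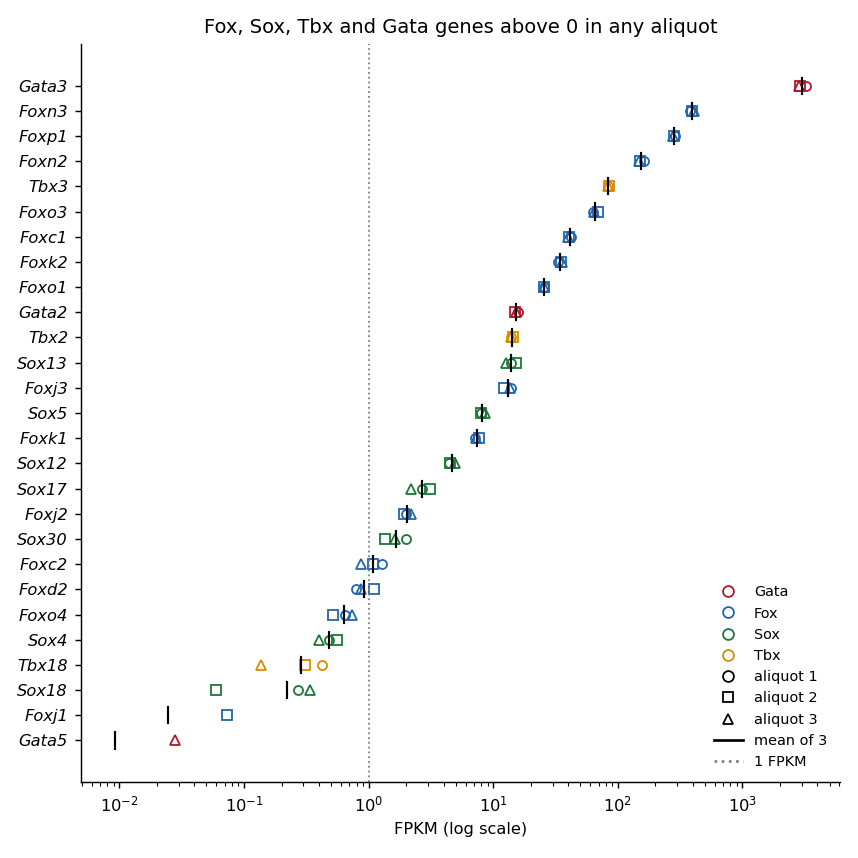
FPKM on a log scale (x axis) of the 27 genes above 0 in any aliquot (y axis, ordered by mean); colours give the family, symbols the aliquot, black bars the mean of 3, and values of 0 are not drawn. Gata3 lies alone near 2992 FPKM, and the 8 genes below the detection limit start at Foxc2 with a mean of 1.08 FPKM.

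Sequences before the start sites are shown for Gata3, the most abundant of these genes, and for Foxc1 and Foxd1, a pair of stromal forkhead genes on chromosome 13 of which the first was detected and the second was listed at 0. They are the 250 bases before the RefSeq start (GRCm38.p6), written 5′ to 3′ on the strand of the gene, with each CpG dinucleotide in capitals. Gata3 is chr2:9878601-9878850 on the minus strand with 19 CpG, Foxc1 chr13:31806396-31806645 on the plus strand with 29, and Foxd1 chr13:98353995-98354244 on the plus strand with 12.
Gata3: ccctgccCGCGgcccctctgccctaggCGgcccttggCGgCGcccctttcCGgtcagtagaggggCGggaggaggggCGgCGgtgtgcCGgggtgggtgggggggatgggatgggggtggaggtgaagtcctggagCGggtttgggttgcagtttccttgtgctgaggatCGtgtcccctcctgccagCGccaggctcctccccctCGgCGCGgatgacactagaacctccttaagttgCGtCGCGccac
Foxc1: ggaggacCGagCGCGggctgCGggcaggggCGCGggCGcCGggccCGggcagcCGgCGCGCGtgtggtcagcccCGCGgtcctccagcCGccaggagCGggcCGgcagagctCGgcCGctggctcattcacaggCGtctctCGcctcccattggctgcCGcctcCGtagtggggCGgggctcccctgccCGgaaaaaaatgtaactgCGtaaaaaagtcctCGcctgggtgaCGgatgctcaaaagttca
Foxd1: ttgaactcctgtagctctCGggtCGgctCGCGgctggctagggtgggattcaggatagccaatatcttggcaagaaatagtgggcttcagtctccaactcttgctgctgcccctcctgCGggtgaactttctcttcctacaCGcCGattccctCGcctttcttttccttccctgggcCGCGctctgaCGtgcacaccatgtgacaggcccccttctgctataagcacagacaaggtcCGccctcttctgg
A promoter was found in the RefSeq table for 54 of the 82 genes, 14 of them detected. The detected genes had a median of 26 CpG in this window, with a range of 3 to 48, and the 36 genes listed at 0 a median of 13.5, with a range of 1 to 29. The whole table showed the same order, 17 for detected protein-coding genes and 4 for those listed at 0. Foxn3 and Foxp1, next to Gata3 by FPKM, had 5 and 11 CpG, and the highest number, 48, belonged to Foxk2. CpG numbers of the groups overlap, and no test was made. Short core motifs of the families were searched on both strands, in the forms given here. Zinc finger GATA factors were represented by the letters GATAA. Forkhead factors were represented by the core TAAACA. For Sox factors the letters ACAAAG were used, and for T-box factors the search looked for GGTGTGA. None of the 4 occurs in the 3 windows printed. The GATA letters were in 0 of 14 detected and 5 of 36 listed-at-0 genes (22.6% of all 32851 windows in that table), the forkhead letters in 2 and 2 (12%), the SOX letters in 2 and 5 (16.5%), and the T-box letters in none of either (3.33%).

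**Figure D2:**
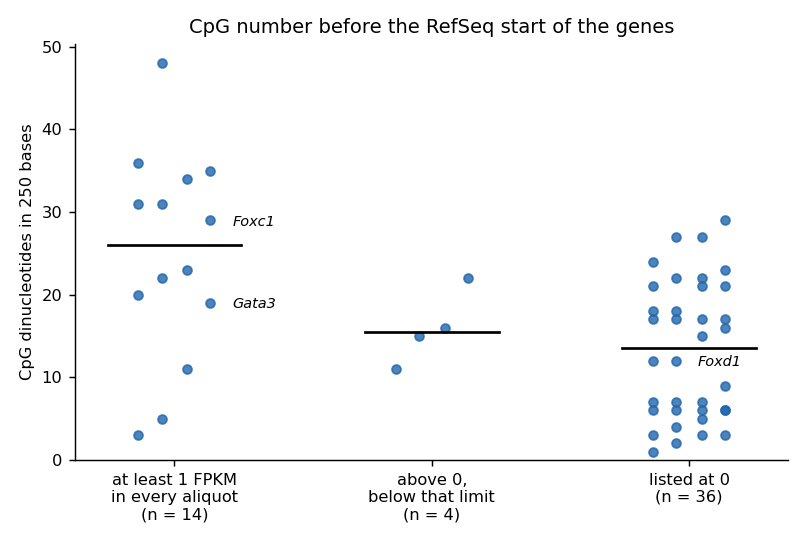
CpG dinucleotides in the 250 bases before the RefSeq start (y axis) for detected genes, genes above 0 but below the limit, and genes listed at 0 (x axis); each point is a gene and bars are medians. Foxc1 and Gata3 sit at 29 and 19, Foxd1 at 12.

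Gata3 dominated the group. Located on the minus strand of chromosome 2 (9857078 to 9890034 in GRCm38, as all gene positions here), Gata3 (ENSMUSG00000015619) had 3232, 2877 and 2867 FPKM in aliquots 1, 2 and 3, a mean of 2992 ± 208 FPKM. It ranked 11 among protein-coding genes. Its 27035, 27447 and 28794 reads made up 54.5% of the 152838 reads of all 82 genes and 0.273% of the library totals. The reads of other genes, such as Foxn3 and Foxp1, may be too low by a whole factor. The share of Gata3 among the 82 genes may therefore be lower than 54.5%. Gata3 was one of the genes by which wells were called mesangial, so its presence was fixed by the choice of cells. Aliquot 1 stood 8.03% above the mean, and aliquots 2 and 3 deviated from it by -3.85% and -4.18%. Of its annotated exonic bases 5.83% lie under other genes, and the neighbour 9230102O04Rik had 0.939 ± 0.190 FPKM.

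The other Gata genes were far lower or listed at 0. Gata2, an endothelial and blood progenitor factor on chromosome 6 (88193891 to 88207032, plus strand), had 15.9, 14.9 and 15.2 FPKM. The mean log2 ratio of Gata3 to Gata2, with 1 FPKM added to both, was 7.52 ± 0.06, and 5.86 with lengths of the longest transcript. Gata5, described in glomerular endothelium of the mouse, rested on 1 read in aliquot 3 (0.0278 FPKM) and was listed at 0 in the others. Gata4 and Gata6, factors of heart, gut and vascular muscle, and Gata1, the erythroid factor, were listed at 0 in every aliquot. Of 12 GATA cofactors 9 were detected, led by Tcf4 (112 ± 4.22 FPKM), Cbfa2t3 (64.0 ± 2.29 FPKM) and Lmo2 (25.8 ± 0.918 FPKM), an adaptor that joins GATA proteins to bHLH factors. This count and the later counts of partner and target genes stand beside 36.5% of all protein-coding genes detected. The direct GATA partners Zfpm1 and Zfpm2, also called FOG proteins, and Lyl1 were listed at 0.

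Endothelial Sox genes were low or at 0. Of the SoxF group, Sox17, an arterial endothelial factor on chromosome 1 (4490931 to 4497354, minus strand), had 2.69, 3.10 and 2.20 FPKM from 57, 75 and 56 reads. Sox18, known from blood and lymphatic vessel formation, had 0.270, 0.0592 and 0.337 FPKM from 4, 1 and 6 reads. Sox7 was listed at 0 throughout. The aliquots of Sox17 lie above every aliquot of Sox18, and their mean log2 ratio with 1 FPKM added was 1.58 ± 0.35, a size that depends on the pseudocount (3.21 with 0.1 FPKM added). Of 20 known SoxF targets and other endothelial genes, 16 were detected. The ephrin gene Efnb2 had 634 ± 9.26 FPKM, Icam2 426 ± 4.92 FPKM and Egfl7 228 ± 5.92 FPKM, while Cldn5 was listed at 0 and Nos3 and Flt4 stood at 0.00931 and 0.147 FPKM.

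The remaining Sox genes were led by the SoxD group. Sox13 had 13.9, 15.1 and 12.7 FPKM, and Sox5 had 7.97, 7.93 and 8.61 FPKM, while Sox6, the other member of that group and a partner of Sox5 in cartilage, was listed at 0. Sox12 and Sox4, of the SoxC group of embryonic progenitors, had 4.63 ± 0.289 FPKM and 0.479 ± 0.0805 FPKM, and their relative Sox11 was listed at 0. In Sox4, 54.6% of the exonic bases are shared with the annotated gene Gm26735, listed at 0, so reads there could be split or dropped by the counting; this was not tested. Sox30, a factor of male germ cells, reached 2.01, 1.34 and 1.64 FPKM from 55, 42 and 54 reads, and no annotated gene shares its exons. Sox8, Sox9 and Sox10, the SoxE group known from nephron epithelium, cartilage and neural crest, were listed at 0, as were the 6 cartilage genes Col2a1, Acan, Col9a1, Matn1, Comp and Hapln1. Sox1, Sox2, Sox3, Sox14, Sox15 and Sox21 completed the 12 Sox genes at 0.

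T-box genes were represented by the Tbx2 and Tbx3 pair. Tbx3 (chromosome 5, 119670669 to 119684724, plus strand), a repressor known from the ureteric mesenchyme and from glomerular endothelium of the mouse, had 82.9, 84.4 and 82.8 FPKM. Tbx2 (chromosome 11, 85832551 to 85841948, plus strand), its paralogue in kidney and limb mesenchyme, had 13.9, 14.5 and 13.8 FPKM. The log2 ratio of Tbx2 to Tbx3 was -2.48 ± 0.02, with no overlap of aliquots, and -1.84 with lengths of the longest transcript. The antisense neighbour Tbx3os1 had 7.90 ± 0.683 FPKM. Tbx18, a marker of ureteric mesenchyme and mural cells, had 0.421, 0.307 and 0.136 FPKM from 18, 15 and 7 reads, with 20.6% of its exonic bases shared with D030062O11Rik. The other 10 Tbx genes were listed at 0, namely Tbx1, Tbx4, Tbx5, Tbx6, Tbx10, Tbx15, Tbx19, Tbx20, Tbx22 and the T cell factor Tbx21. Of the T-box genes without a Tbx number, Mga, a Max-binding factor, had 68.6 ± 1.05 FPKM, and T, Eomes and Tbr1 were listed at 0.

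Among forkhead genes the highest levels belonged to Foxn3, Foxp1 and Foxn2. Foxn3, a repressor of cell cycle genes on chromosome 12 (99190078 to 99563582, minus strand), had 379, 394 and 407 FPKM. Foxp1, a repressor broadly made in endothelium, blood and heart (chromosome 6, 98925338 to 99522721, minus strand), had 287, 283 and 278 FPKM, whereas Foxp2, Foxp3 and Foxp4 were listed at 0. Foxn2 (chromosome 17, 88440711 to 88490533, plus strand) had 161, 149 and 147 FPKM, the aliquot 1 value lying highest. Foxn1, the thymic epithelial factor, and Foxn4 were listed at 0.

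FoxO genes, which insulin and growth factor signals hold out of the nucleus through Akt, were led by Foxo3 with 63.7, 69.6 and 64.1 FPKM. Foxo1, needed for vessel growth in the mouse, had 25.7, 25.8 and 25.4 FPKM and Foxo4 had 0.652, 0.519 and 0.740 FPKM, so the order Foxo3, Foxo1, Foxo4 held in each aliquot. Foxo6 was listed at 0. Of 22 genes of FoxO control 19 were detected, with the 14-3-3 genes Ywhaz (3177 ± 35.7 FPKM) and Ywhae (1531 ± 7.19 FPKM) and the kinase gene Sgk1 (814 ± 20.2 FPKM) highest. Pik3cb and Skp2 were listed at 0, and Mapk8 had 0.952 ± 0.346 FPKM. Of 22 FoxO targets 18 were detected, led by Txnip (202 ± 0.50 FPKM), the Tie2 ligand Angpt2 (107 ± 0.397 FPKM) and Klf6 (63.3 ± 0.881 FPKM). The lowest of them were Sesn3, Bcl2l11 and Trib1 at 0.101, 0.107 and 0.351 FPKM.

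Stromal and mural forkhead genes were split between Foxc1 and a row of genes at 0. Foxc1 (ENSMUSG00000050295) had 42.3, 40.9 and 39.8 FPKM, and Foxc2 1.29, 1.09 and 0.870 FPKM, a mean log2 ratio of 4.34 ± 0.10 with 1 FPKM added and 5.13 with 0.1 FPKM added. Foxd1 (ENSMUSG00000078302, chromosome 13, 98354242 to 98359305, plus strand) was listed at 0 in every aliquot, and its paralogue Foxd2 had 0.794, 1.10 and 0.870 FPKM, below its antisense neighbour Foxd2os with 5.75 ± 0.293 FPKM. Foxf1, Foxf2, Foxl1 and Foxs1, known from gut mesenchyme, pericytes and perivascular cells, were listed at 0. Other regulators of renal stroma and ureteric mesenchyme were measured beside them, and 10 of 15 genes were detected. Foxd1 and Tbx18 are on that list and were among the 5 not detected. The orphan receptor gene Nr2f2 had 459 ± 26.2 FPKM and Ebf1 296 ± 3.00 FPKM, while Osr1 and Ntn1 were listed at 0 and Tcf21 had 0.153 ± 0.133 FPKM. Wt1, which is on that list and is also the podocyte marker with 101 ± 3.18 FPKM, does not separate stroma from podocytes.

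Of the broadly made FoxK and FoxJ genes, Foxk1, Foxk2, Foxj2 and Foxj3 were detected and Foxj1 was not. Foxk2 had 33.0, 35.1 and 35.8 FPKM and Foxk1 had 7.19, 7.65 and 7.24 FPKM, a log2 ratio of Foxk1 to Foxk2 of -2.09 ± 0.06, or -0.84 with lengths of the longest transcript. Foxj3 had 13.9, 12.1 and 13.6 FPKM and Foxj2 had 2.01, 1.92 and 2.17 FPKM. Foxj1, which drives motile cilia and is of another subgroup, had 2 reads in aliquot 2 and was otherwise at 0. Foxm1, a proliferation factor, was listed at 0. The same held for Foxa1, Foxa2 and Foxa3, known from liver and gut, for Foxb1, Foxb2 and Foxd3, known from brain and neural crest, and for Foxi1, known from intercalated cells. Foxd4, Foxe1, Foxe3, Foxh1, Foxi2, Foxi3, Foxl2, Foxq1, Foxr1 and Foxr2 were also among the 30 forkhead genes at 0.

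Sorted by the lineage each gene is known from, detected genes fell in 7 of 11 lists. These counts stand beside 23.2% of the 82 genes and 36.5% of all protein-coding genes detected. The lists overlap, with Foxc1 in 4 of them and Foxp1 and Foxo1 in both the endothelial and the broadly expressed list. They do not hold every member, and the detected gene Sox5 is in none. The lists were compiled with earlier results of these data known, so their counts are descriptions. Of 14 broadly expressed genes 11 were detected, with Foxo4, Sox4 and Foxp4 missing. Of 12 endothelial genes 6 were detected, namely Foxp1, Tbx3, Foxc1, Foxo1, Gata2 and Sox17. Among 8 genes of renal stroma and ureteric mesenchyme there were 3, Tbx3, Foxc1 and Tbx2, and the 6 pericyte and mural genes had 2, Foxc1 and Tbx2. Of 3 mesangial genes only the selection gene Gata3 was detected, with Tbx18 below the limit and Foxd1 at 0. For podocytes Foxc1 was detected and Foxc2 missed the limit; podocyte markers with a summed 276 to 293 FPKM stand beside both, and their part in the result was not tested. None of 5 nephron epithelial, 4 blood and immune and 7 neural genes was detected, and of 7 endoderm and germline genes Sox30 alone was. The 8 T cell genes set beside Gata3, Tbx21 and Foxp3, such as Il4, Ifng, Cd3e and Cd4, were listed at 0.

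**Figure D3:**
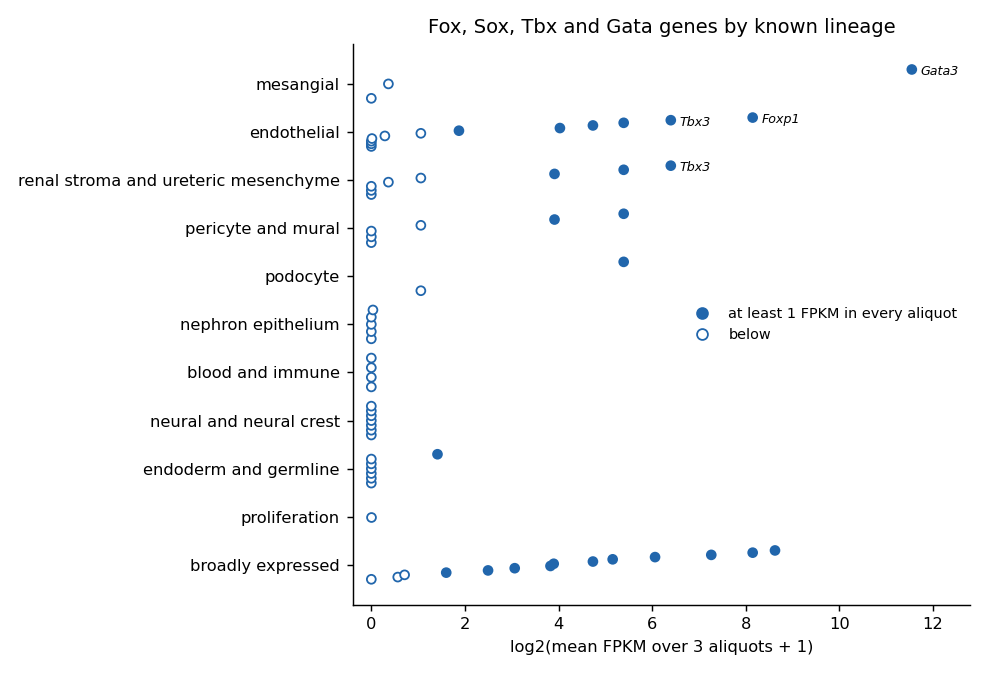
log2 of mean FPKM over 3 aliquots plus 1 (x axis) for genes sorted by the lineage they are known from (y axis); filled points were detected, open points were not, and a gene may stand in several rows. Gata3 lies at the right end of the mesangial row, and the blood, neural and proliferation rows have all points at 0.

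Several members lie side by side in the genome. On chromosome 13 Foxq1, Foxf2 and Foxc1 lie within 500000 bases, and Foxc1 (31806633 to 31812476) had 41.0 ± 1.29 FPKM with Foxq1 and Foxf2 at 0. On chromosome 8 Foxf1, Foxc2 and Foxl1 follow each other, Foxc2 lying 28027 bases from Foxf1 and 9045 bases from Foxl1, and only Foxc2 was above 0. Tbx2 and Tbx4 are 44474 bases apart on chromosome 11, Tbx3 and Tbx5 147944 bases apart on chromosome 5, and in both pairs the second was at 0. Foxd2 is 16274 bases from Foxe3 on chromosome 4, which was at 0. On chromosome X, Foxp3 and Gata1 were both listed at 0.

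Gene structure is given as a description. Detected genes had a median of 5 annotated transcripts and a median span of 42075 bases, and those at 0 had 1 transcript and 5588 bases. Only 1 of 19 detected genes, Foxc1, has a single exon, against 15 of 55 at 0. Over the whole table the single-exon share was 1.37% for detected protein-coding genes and 8.36% for those at 0. Where up to 50% of exonic bases are shared with another gene, 14 of 23 genes were at 0 (60.9%, against 40.4% of protein-coding genes in that class). With no shared base 40 of 57 were at 0 (70.2%, against 59.4%), and of Sox4 and Foxq1, above 50%, Foxq1 was.

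Between neighbours by mean FPKM among the 20 genes of at least 1 FPKM, the gap was larger than the SD of either gene except for Tbx2, Sox13 and Foxj3, with means of 14.1, 13.9 and 13.2 FPKM. Foxj2 and Sox30 also overlapped in single aliquots. The order depends on the gene length behind FPKM. The values of Gata3 imply a length of 915 bases, close to the mean over its annotated transcripts, while the longest has 3215, and Foxp1 implies 861, or a whole multiple of it, against 7177. With every level rescaled to the longest transcript, Gata3 stayed highest at 852 ± 59.2 FPKM and rank 30 among protein-coding genes. Foxn2 (77.6 ± 3.86 FPKM) then stood above Foxn3 (68.2 ± 2.44 FPKM). The length of Foxn2, 2586 bases, equals its transcript mean. Foxn3 implies 1335 bases, or a whole multiple, which is neither its transcript mean of 1459 nor its longest of 7705. With a multiple its rescaled level would be higher, so the order of Foxn2 and Foxn3 on this scale is not settled. The rescaled level of Foxp1, 33.9 ± 0.584 FPKM, is too low by the same factor where its length is a multiple of 861, so its place beside Tbx3 (52.9 ± 0.559 FPKM) is not settled.

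**Figure D4:**
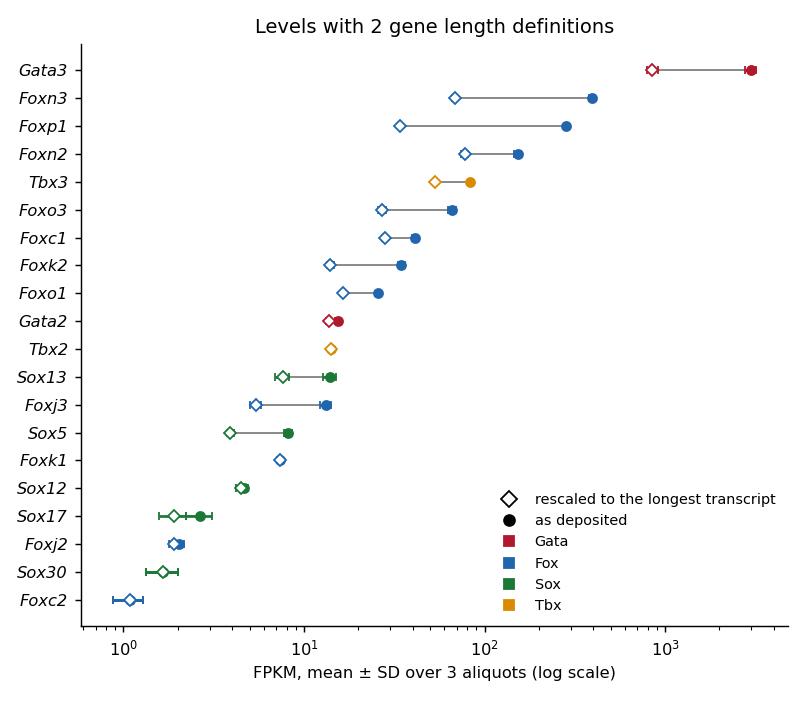
Mean FPKM with SD over 3 aliquots on a log scale (x axis) for the 20 genes of at least 1 FPKM (y axis), rescaled to the longest annotated transcript (open diamonds) and as deposited (filled circles). Gata3 stays rightmost at 852 and 2992 FPKM, and Foxp1 is at 33.9, against 283 as deposited, with a length known only up to a whole factor.

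Spread between the aliquots was set against counting error. A chi-square test of the recovered reads against the library totals, with Benjamini-Hochberg adjustment over the 9120 genes with at least 30 reads, called 2 of the 24 genes tested here, Gata3 (chi-square 256, adjusted p = 6.5e-53) and Foxn2 (chi-square 18.9, adjusted p = 0.013). Among all genes tested 1.09% of genes were called, and 10.5% of those with at least 10000 reads, a depth that Gata3, Foxn3 and Foxn2 reach. Foxp1, with 7423 recovered reads, reaches it too if its reads are too low by a whole factor. Both called genes were highest in aliquot 1, and with aliquot 1 left out neither was called (adjusted p = 0.966 for Gata3 and 0.942 for Foxn2, chi-square test). Without aliquot 3, Foxn2 was not called in the chi-square test over all genes (adjusted p = 0.068), while Gata3 was. Foxn3 and Foxo3 had chi-square values of 13.3 and 9.76 and did not pass (adjusted p = 0.083 and 0.218), but without aliquot 2 Foxn3 did (adjusted p = 0.029). These values take the smallest whole read numbers. The lengths of Foxn3 and Foxp1 may be whole multiples of those used, which would raise their reads and chi-square by the same factor. Whether Foxn3 passes with all aliquots, and with it the count of 2, is therefore not settled. Over the 24 genes, 5 had an unadjusted p under 0.05, as had 1041 of all 9120. For the detected genes the CV of FPKM was at the median 1.12 times the CV computed from counting error. With 3 aliquots the median of such a ratio lies below 1 under counting alone, so 1.12 understates the excess. The CV of Gata3 was 6.96% where counting gives 0.60%. Among low genes, Tbx18 had a CV of 49.7% beside 27.4% from counting, with an adjusted chi-square p of 0.368.

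**Figure D5:**
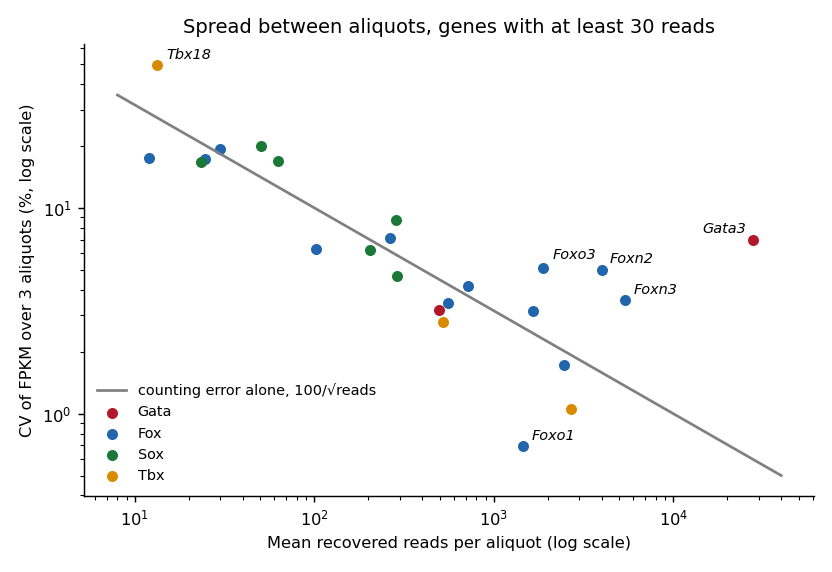
Coefficient of variation of FPKM over the 3 aliquots (y axis, log scale) against mean recovered reads per aliquot (x axis, log scale) for the 24 genes with at least 30 reads; the line is counting error alone. Gata3 at 6.96% lies farthest above the line, and Foxo1 at 0.699% lies below it.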

How the data were processed

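Libraries of 3 aliquots of 1 cDNA pool were analysed from 1 table of 39304 rows, each column matched to its sample by title. Its columns hold FPKM, deposited as 1 column per library. Per the submitters' processing notes, TopHat2 2.0.12, HTSeq 0.6.1 and GRCm38 were used; their settings, the use of strand, the release of gene models and how gene length was defined were not given in the sources used here. Symbols matched 37607 rows. Biotypes, positions and transcript lengths came from GENCODE M21 (GRCm38); another release may underlie the table. Lengths implied by FPKM were computed for the 27 genes above 0, and 14 equalled the mean over that gene's transcripts to 1 base. Foxc1 and Foxo1 have 1 annotated transcript each, of 5844 and 8665 bases, but imply 3990 and 5552 bases. GENCODE M21 lengths therefore do not underlie every value. For these 2 genes the change on rescaling to the longest transcript is this mismatch, not a choice among transcripts, and its reason was not tested. Promoter sequences are RefSeq's (GRCm38.p6).

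For genes above 0 and below 0.5 FPKM, the library total implied by 1 read at the mean transcript length of GENCODE M21 was computed. The commonest such value, refined on genes of higher FPKM, gave each library's total. With these totals whole reads, to a tolerance of 0.0001, came out for all 11142 genes with a value, and 759 genes used as a control had a solution no longer than their longest transcript in 91.8% with these totals and in 0% with shifted ones. Recovered reads made up 96.7% of each total. A gene's reads and implied length may be too low by a common factor, which lowers its chi-square and its level rescaled to the longest transcript. Intervals of counting do not cover amplification. The recovery and the chi-square test were tested on simulated data. Over all genes the median chi-square was 1.31 times its sampling value, so the aliquots differed slightly more than sampling alone gives. The members, lists and tests were chosen with earlier results of these data known. Named are all members, the 3 highest and up to 3 undetected genes of each partner list, except a few that are not reported here. Among the relatives outside the rule, 6 of 10 were detected, led by Hmgb1 (1377 ± 13.3 FPKM), Tcf7l2 (123 ± 5.18 FPKM) and Tox (22.3 ± 0.303 FPKM), with Lef1 at 0. Log2 ratios used a pseudocount of 1 FPKM, which understates differences of low genes. No count model of differences between conditions was run, as there is 1 group and the deposited unit is FPKM. The chi-square test used the recovered reads. Python 3.11.15, pandas 2.3.3, scipy 1.17.1 and matplotlib 3.10.9 were used.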

Additional observations from a re-analysis of the deposited data

How the results depend on the processing

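The number of detected genes was 19, and it lay between 15 (limit of 5 FPKM) and 23 (at least 10 reads in every aliquot, an alternative chosen after seeing the data) over all alternatives; leaving out an aliquot gave 19 to 20. The number of at least 10 FPKM was 13, and 11 with lengths of the longest transcript. The median log2(FPKM + 1) of detected genes, 4.03, was 3.95 with a pseudocount of 0.1 FPKM, 3.20 over all genes above 0 and 0 over all 82 genes; without 1 aliquot it ran between 3.99 and 4.05. Of 18 paralogue log2 ratios, 15 kept their direction but moved by more than the SD between aliquots with lengths of the longest transcript, and 15 did so with a pseudocount of 0.1 FPKM. With the longest transcript 1 changed direction: Foxn2 to Foxn3 was -1.36 as deposited and 0.18. This takes 1335 bases as the length of Foxn3, and a whole multiple would lower the ratio, so the change is not settled. All 18 stayed within the SD with 1 aliquot left out. This outcome was fixed by arithmetic, since dropping 1 of 3 aliquots always moves a mean by less than the SD. It therefore says nothing about how stable the ratios are. Genes beyond counting error numbered 0 to 3 with 1 aliquot left out (0 without aliquot 1, 3 without aliquot 2 and 1 without aliquot 3), and 2 under the other read minimums and totals. All these counts take the smallest whole read numbers, and a multiple for Foxn3 could raise them. Of 115 partner and target genes 78 were detected, beside 36.5% of all protein-coding genes. The number was 80 at 0.5 FPKM and 63 at 5 FPKM. No paired analysis was possible because all aliquots belong to 1 group. Depth limits the genes below about 30 reads, Sox18, Foxj1 and Gata5, for which no spread was tested.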
